A study of Homo sapiens with 8 samples.

Results

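The collagen and laminin genes of J82 cells were compared between side population (SP) and non-side population (NSP) cells. Members were the protein-coding genes whose current symbol is COL, a number, A and a number, or LAMA, LAMB or LAMC and a number, and 56 of the 57820 genes in the count table met this rule (44 collagens and 12 laminins). J82 is a human bladder cancer cell line, and all libraries came from this line grown in DMEM with 10% FBS. The cells were sorted by flow cytometry after staining with the DNA dye Hoechst, with 7-AAD to mark dead cells. SP cells are those that pump the dye out and NSP cells those that retain it, and the study treats the former as its drug-resistant state and the latter as its drug-sensitive state. There were 4 RNA-seq libraries per group, and neither group received a drug or an altered gene. No source says that the replicates were separate cultures, so p-values measure the spread between these libraries, which may be technical.

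Collagens are trimers of chains that wind into a triple helix. Fibrillar collagens (types I, III and V) build the cables of connective tissue, while type IV collagen forms the mesh of basement membranes, the thin sheets on which epithelia such as the bladder lining rest. Laminins are crosses of an alpha, a beta and a gamma chain that assemble on the cell surface, bind integrins and start the basement membrane. Type VI collagen forms beaded filaments beside it, and type VII forms the fibrils that anchor it to the tissue underneath.

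The libraries held 1431823 to 1697218 counts in SP and 1489033 to 2073526 in NSP. These totals are far below the number of raw reads that the paper states per sample, and the reason was not tested. The strand setting of the counting is not named in the sources used here. The levels and changes of all genes below may depend on it, and this was not tested. Collagen and laminin genes took 0.203% to 0.238% of the counts in SP libraries and 0.236% to 0.256% in NSP libraries. Of the markers of a urothelial or epithelial cell, KRT8 and KRT18 were abundant in both groups, with 3298 ± 485 CPM (SD, n = 4) of KRT8 in SP and 4022 ± 737 CPM in NSP. The markers KRT13, KRT20, UPK3A and TP63 were at 0 in every library. KRT7 was well expressed too, with 258 ± 87.0 CPM in SP and 659 ± 129 CPM in NSP. The remaining markers of the list were low or nearly absent. UPK2, a uroplakin, had 20.7 ± 9.79 CPM in SP and 17.8 ± 6.18 CPM in NSP. The exons of KRT8, KRT18 and UPK2 cross genes on the other strand. KRT19 and KRT17 held 418 and 67 counts over the 8 libraries. KRT5, KRT14 and UPK1A held 1 count each, EPCAM 3, UPK1B 13 and CDH1 24. GATA3, PPARG and FOXA1 held 34, 57 and 22 counts over the 8 libraries. CPM here are a gene's counts scaled to a common library size after TMM normalization.

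At least 1 count was found for 48 members, and 18 passed the filter on low counts (13 collagens and 5 laminins). The other 38 had too few counts for the test. A gene was called when edgeR's quasi-likelihood test gave a Benjamini-Hochberg adjusted p-value under 0.05, over all 9309 genes tested, and the fold change was over 1.3. COL1A2 was called higher in SP cells, and COL4A2, COL6A1, COL7A1 and LAMC1 were called lower. The other 13 tested members were not called. Over all tested genes 1.63% were called higher and 2.03% lower. When the fit took the replicate number as a blocking term, the same 5 members were called and COL4A1, COL18A1, LAMB1 and LAMB3 were called lower as well, 8 in all, where 5.89% of all tested genes were higher and 7.0% were lower. The standard error with the block was 0.20 for COL1A2, where differences of log2(CPM + 1) within replicate numbers ran from 1.149 to 3.263. For COL6A1 it was 0.23, and the differences ran from -2.275 to 0.185. P-values with the block may thus understate the spread of a gene's own pairs, and calls made only with it need caution. Bulk counts cannot tell fewer expressing cells apart from less RNA per cell.

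**Figure D1:**
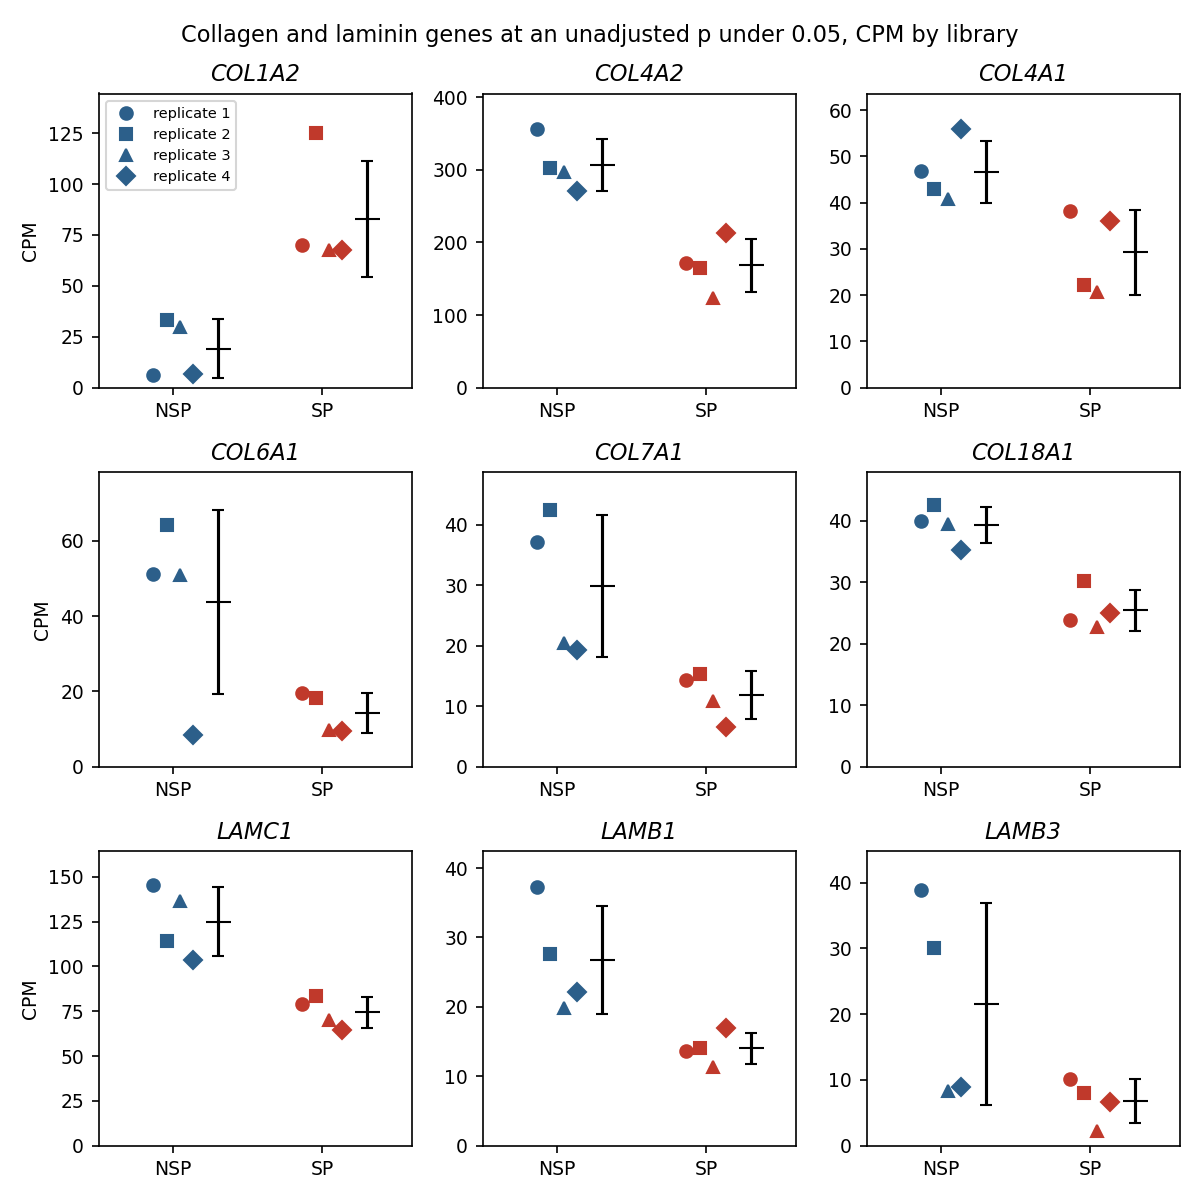
CPM (linear axes from 0) in each NSP and SP library for the 9 members at an unadjusted p under 0.05 in edgeR, with marker shape for the replicate number and the bar for the mean ± SD of 4 libraries. COL1A2 is the only one of the 9 with all SP libraries above all NSP libraries. COL6A1 and LAMB3 are the panels in which the groups overlap.

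COL1A2 was the only tested member called higher in SP cells. It encodes the alpha 2 chain of type I collagen, the main fibril of connective tissue, and lies on the plus strand at chr7:94024207-94060539 (GRCh37). The SP libraries held 69.9, 125, 67.7 and 67.7 CPM in the order of the replicate numbers, and the NSP libraries 6.38, 33.1, 30.0 and 6.91 CPM. Every SP library was above every NSP library, and the NSP libraries fell into a lower pair (replicates 1 and 4) and a higher pair (replicates 2 and 3). The means were 82.7 ± 28.5 CPM in SP and 19.1 ± 14.4 CPM in NSP (SD, n = 4 each), a log2 fold change of 2.09 (SE 0.40, edgeR adjusted p = 0.0085), or 4.26-fold. A two-sided exact permutation of the libraries, on log2(CPM + 1), gave p = 0.0286, the smallest value that 4 libraries against 4 allow. The raw counts were 97, 187, 125 and 92 in SP and 12, 67, 47 and 10 in NSP, so the lowest libraries rest on few reads.

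Type I collagen is normally built from COL1A1 and COL1A2 chains together. COL1A1 was too low for the test, with 7, 7, 21 and 4 counts in the SP libraries and 9, 16, 7 and 5 in the NSP libraries. The groups overlapped, and with no filter on low counts its log2 fold change was 0.22 (edgeR adjusted p = 0.853). Over the 8 libraries COL1A1 held 76 counts and COL1A2 637. The difference seen for COL1A2 was not seen for its partner chain, but at so few counts a difference in COL1A1 could be missed. A noncoding gene on the other strand of COL1A1, ENSG00000249406, had 15 counts in all. With these added to COL1A1 its log2 fold change was 0.455 (edgeR adjusted p = 0.591).

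The other fibrillar chains were not called. COL3A1, the single chain of type III collagen, had 320 ± 81.8 CPM in SP and 264 ± 53.0 CPM in NSP (log2 fold change 0.28, SE 0.20, edgeR adjusted p = 0.524), with a 95% interval from -0.14 to 0.70. The type V chains, which set fibril diameter, gave log2 fold changes of 0.14 for COL5A1 (95% interval -0.41 to 0.69) and 0.40 for COL5A2 (-0.21 to 1.01). COL27A1 was low, at 5.20 ± 3.08 CPM in SP and 6.38 ± 3.16 CPM in NSP. These intervals are wide, so the data do not show that SP and NSP cells were alike in these genes. Set against COL3A1 in the same library, COL1A2 was at a log2 ratio of -1.96 ± 0.35 in SP and -4.05 ± 1.01 in NSP, and the groups did not overlap. The fibrillar collagens summed to 633 ± 186 CPM in SP and 485 ± 104 CPM in NSP, with overlap.

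The members of the basement membrane were lower in SP cells where they were called. The 2 chains of the commonest type IV collagen, COL4A1 and COL4A2, lie head to head on chromosome 13. COL4A1 is on the minus strand (chr13:110801310-110959504) and COL4A2 on the plus strand (chr13:110958159-111165556), and the starts of their main transcripts are 127 bp apart in GENCODE on GRCh37. The interval between these starts is shown because both genes are read outward from it.

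COL4A1 to COL4A2 start interval, chr13:110959505-110959630, GRCh37, plus strand: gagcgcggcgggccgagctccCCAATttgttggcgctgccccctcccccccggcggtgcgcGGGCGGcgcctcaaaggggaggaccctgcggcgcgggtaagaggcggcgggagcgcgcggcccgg

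The capitals mark CCAAT, read on either strand, and then GGGCGG. The motifs listed for the search on both strands were the TATA box TATAAA, the GC box GGGCGG, the AP-1 site TGANTCA, the forkhead core TGTTTA and the E-box CACGTG, which do not contain one another. The CCAAT box was added after the sequence was seen. GGGCGG occurred in 44.6% and CCAAT in 35.7% of 27305 RefSeq promoters on GRCh38.p14 that reach from 250 bases before to 50 after the start. A match is a description of the letters only.

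COL4A2 had 172, 164, 124 and 214 CPM in the SP libraries and 356, 303, 297 and 270 CPM in the NSP libraries. All 4 SP libraries were below all 4 NSP libraries. The means were 168 ± 36.7 CPM and 307 ± 36.1 CPM, a log2 fold change of -0.87 (SE 0.17, edgeR adjusted p = 0.0099). COL4A1 had 38.2, 22.1, 20.6 and 36.1 CPM in SP against 46.8, 43.0, 40.8 and 56.0 CPM in NSP, again without overlap. It was not called in the fit without a block (log2 fold change -0.68, SE 0.23, edgeR adjusted p = 0.117) but was with the replicate block (-0.70, adjusted p = 0.00414). The log2 ratio of COL4A1 to COL4A2 was -2.51 ± 0.29 in SP and -2.69 ± 0.30 in NSP, and the groups overlapped. COL4A5, a chain of another type IV network, had 11.5 ± 2.12 CPM in SP and 12.7 ± 3.41 CPM in NSP (log2 fold change -0.13, 95% interval -0.73 to 0.46). COL4A3, COL4A4 and COL4A6 had 19, 6 and 7 counts over the 8 libraries. The type IV chains summed to 160 to 260 CPM in the SP libraries and 341 to 419 CPM in the NSP libraries.

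COL4A2 shares exonic bases with genes on the other strand, and no source used here names the strand setting of the counting. Without strand, reads from such a pair cannot be told apart. The levels of members that cross no such gene may depend on the setting too. COL4A2-AS1, a noncoding gene (chr13:111154922-111160526, minus strand), covers 81 bp of COL4A2 exon, all of it coding, and the exon stretch is printed because reads there could be of either gene.

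COL4A2 exon across COL4A2-AS1, chr13:111160426-111160546, GRCh37, plus strand: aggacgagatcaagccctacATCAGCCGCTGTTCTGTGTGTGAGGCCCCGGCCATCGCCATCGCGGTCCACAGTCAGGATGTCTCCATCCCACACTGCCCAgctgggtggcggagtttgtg

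The capitals mark the shared bases. COL4A2-AS1 had 67.4 ± 15 CPM in SP and 136 ± 12.1 CPM in NSP (log2 fold change -1.02, SE 0.18, edgeR adjusted p = 0.00522), without overlap. Per kb of exon it held 15.3 times the counts of COL4A2. COL4A2-AS2, which shares 14 bp, had 12.7 ± 1.51 CPM in SP and 33.1 ± 7.19 CPM in NSP (log2 fold change -1.38, SE 0.24, adjusted p = 0.00454), also without overlap. COL4A2 and both of its noncoding partners were thus called lower in SP cells. With the noncoding genes' counts added to COL4A2, its log2 fold change was -0.94 (adjusted p = 0.00592). The part of each strand in the other's change was not tested.

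**Figure D2:**
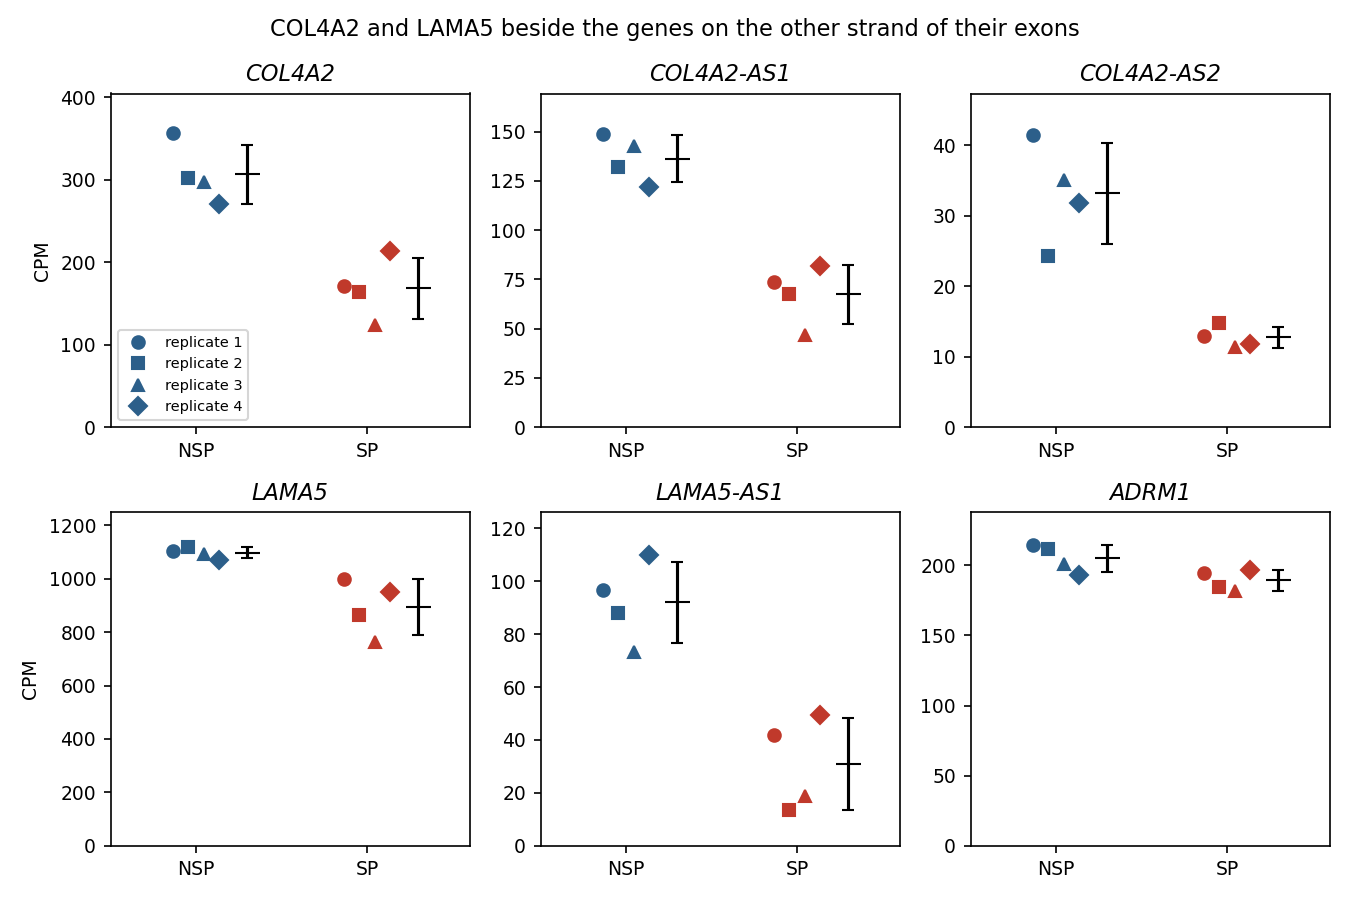
CPM (linear axes from 0) in each NSP and SP library for COL4A2 and LAMA5 (left) and for the genes on the other strand of their exons, with the bar for the mean ± SD of 4 libraries. COL4A2-AS1, COL4A2-AS2 and LAMA5-AS1 lie lower in all 4 SP libraries than in any NSP library, while the ADRM1 libraries overlap.

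Laminins were measured most deeply through LAMA5, the alpha chain of the common epithelial laminins. LAMA5 had the highest level per kb of all tested members, 78.3 CPM per kb in SP and 96.1 CPM per kb in NSP, followed by COL3A1 at 58.4 and 48.2 CPM per kb. Its SP libraries held 1000, 865, 764 and 951 CPM and its NSP libraries 1106, 1119, 1094 and 1072 CPM. No SP library reached an NSP library, yet the difference was small and missed the threshold (log2 fold change -0.30, SE 0.14, edgeR adjusted p = 0.312). The 95% interval ran from -0.59 to 0.00. The other alpha chains were too low to test, with 37 counts of LAMA1, 3 of LAMA2, 12 of LAMA3 and 88 of LAMA4 over the 8 libraries.

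LAMA5-AS1 (chr20:60928026-60931536, plus strand) covers 118 bp of LAMA5 coding exon, and the stretch is shown on the LAMA5 strand with the shared bases in capitals.

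LAMA5 exon across LAMA5-AS1, chr20:60928170-60928327, GRCh37, minus strand: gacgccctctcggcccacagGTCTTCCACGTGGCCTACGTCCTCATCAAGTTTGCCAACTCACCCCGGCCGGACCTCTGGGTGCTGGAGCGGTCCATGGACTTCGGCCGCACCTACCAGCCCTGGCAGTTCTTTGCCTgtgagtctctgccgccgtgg

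LAMA5-AS1 had 41.8, 13.4, 18.9 and 49.3 CPM in the SP libraries and 96.8, 87.9, 73.3 and 110 CPM in the NSP libraries. It was called lower in SP (log2 fold change -1.59, SE 0.30, edgeR adjusted p = 0.00834) while LAMA5 itself was not called. Within each library, the log2 ratio of LAMA5-AS1 to LAMA5 was -4.99 ± 0.75 in SP and -3.58 ± 0.26 in NSP, without overlap. The counts given to LAMA5-AS1 were thus lower in SP also relative to those of LAMA5. As for COL4A2, the strand of these reads is not known, and the part of LAMA5 reads in the LAMA5-AS1 counts was not tested. At the other end of LAMA5, ADRM1, a subunit of the proteasome, shares 244 bp and had a log2 fold change of -0.11 (adjusted p = 0.732).

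LAMC1, the gamma chain found in most laminins, was the called laminin. It lies on the plus strand at chr1:182992555-183114727. Its SP libraries held 79.3, 83.8, 69.9 and 64.8 CPM and its NSP libraries 145, 114, 136 and 104 CPM, with no overlap. The means were 74.4 ± 8.66 CPM and 125 ± 19.3 CPM (log2 fold change -0.75, SE 0.16, edgeR adjusted p = 0.0187). Without NSP replicate 1 the adjusted p was 0.0531 and without SP replicate 4 it was 0.0536. LAMC3 was at 0 in every library.

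Of the beta chains, LAMB1 and LAMB3 were called lower with the replicate block and not in the main fit without it. Some other settings without the block called them too, as given in the closing section. LAMB1, the beta chain that pairs with LAMC1 in many tissues, lies at chr7:107564244-107643658. It had 13.7, 14.1, 11.4 and 16.9 CPM in SP and 37.2, 27.7, 19.8 and 22.1 CPM in NSP, without overlap. The log2 fold change was -0.95 (SE 0.26, edgeR adjusted p = 0.0517), and with the replicate block it was -0.92 (adjusted p = 0.00262). LAMB3, the beta chain of a laminin at epithelial attachment sites, had 10.1, 8.04, 2.17 and 6.62 CPM in SP and 38.8, 30.1, 8.29 and 8.99 CPM in NSP. NSP replicates 3 and 4 lay within the SP range, and the log2 fold change was -1.75 (SE 0.51, adjusted p = 0.071), or -1.65 with the block (adjusted p = 4.83e-06). LAMB2, a beta chain of muscle, kidney and nerve basement membranes, had 170 ± 53.2 CPM in SP and 213 ± 39.0 CPM in NSP (log2 fold change -0.33, 95% interval -0.75 to 0.10). LAMB4 had 1 count in all.

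LAMB1 and COL18A1 also cross genes of the other strand. DLD, an enzyme of mitochondrial metabolism, shares 300 bp with LAMB1 and had 33.8 ± 4.77 CPM in SP and 50.3 ± 9.46 CPM in NSP (log2 fold change -0.58, edgeR adjusted p = 0.123, and 0.0172 with the block). A noncoding gene across LAMB1, ENSG00000273055, had 31 counts. SLC19A1, a folate transporter, shares 1563 bp with COL18A1 and had 27.8 ± 7.72 CPM in SP and 50.0 ± 12.7 CPM in NSP (log2 fold change -0.84, adjusted p = 0.0637, and 2.66e-04 with the block). Both protein-coding neighbours were thus called lower with the block and not in the main fit without it, as LAMB1 and COL18A1 were. In all, 4 of the 18 tested members (22.2%) shared exonic bases with an opposite-strand gene, against 54.2% of all tested genes.

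All laminin chains together summed to 1000 to 1293 CPM in the SP libraries and 1441 to 1586 CPM in the NSP libraries, and the sums did not overlap. LAMA5 made up most of this sum. The 5 tested laminins had a median log2 fold change of -0.75, and all 5 were negative, where the median of all tested genes was 0.015 and 48.2% were negative. The 13 tested collagens had a median of -0.13, with 7 negative and 6 positive. These medians cover the members that passed the filter, not the whole families.

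COL7A1 encodes the collagen of anchoring fibrils, which tie the basement membrane of stratified epithelia to the tissue beneath. It lies on the minus strand at chr3:48601506-48632762. The SP libraries held 14.4, 15.4, 10.8 and 6.62 CPM and the NSP libraries 37.2, 42.5, 20.4 and 19.4 CPM, with no overlap. NSP replicates 1 and 2 were above NSP replicates 3 and 4. The log2 fold change was -1.35 (SE 0.32, edgeR adjusted p = 0.0258). The call was lost without NSP replicate 1, NSP replicate 2, SP replicate 3 or SP replicate 4, where the adjusted p was 0.0692, 0.106, 0.0613 and 0.0673.

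COL6A1, a chain of the beaded type VI filaments, lies on the plus strand at chr21:47401684-47424964. Its SP libraries held 19.4, 18.1, 9.75 and 9.57 CPM and its NSP libraries 51.1, 64.2, 51.0 and 8.30 CPM. NSP replicate 4 was below every SP library, and the other NSP libraries were above every SP library. The means were 14.2 ± 5.29 CPM and 43.6 ± 24.4 CPM (log2 fold change -1.64, SE 0.43, edgeR adjusted p = 0.0445), and the exact two-sided permutation test gave p = 0.143. The call was lost without NSP replicate 1, 2 or 3 (adjusted p = 0.0909, 0.151 and 0.089) and without SP replicate 2, 3 or 4 (0.0768, 0.111 and 0.114). Its partner COL6A2, 93.1 kb away, had 2, 1, 1 and 0 counts in SP and 4, 7, 4 and 2 in NSP.

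COL18A1, a basement membrane collagen with long sugar chains whose end fragment is endostatin, lies at chr21:46825080-46933634. It held 23.8, 30.2, 22.7 and 25.0 CPM in SP and 39.9, 42.5, 39.5 and 35.3 CPM in NSP, without overlap and with little spread in either group. The log2 fold change was -0.63 (SE 0.19, edgeR adjusted p = 0.0768), and with the replicate block it was -0.63 (adjusted p = 0.0161). Among the collagens that coat fibrils, COL12A1 had 81.3 ± 16.6 CPM in SP and 66.5 ± 21.9 CPM in NSP (log2 fold change 0.30, 95% interval -0.18 to 0.77). COL14A1 had 7.13 ± 3.63 CPM in SP and 3.92 ± 3.42 CPM in NSP (log2 fold change 0.89, 95% interval -0.26 to 2.03). The coat collagens were thus not separated between the groups at this depth.

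**Figure D3:**
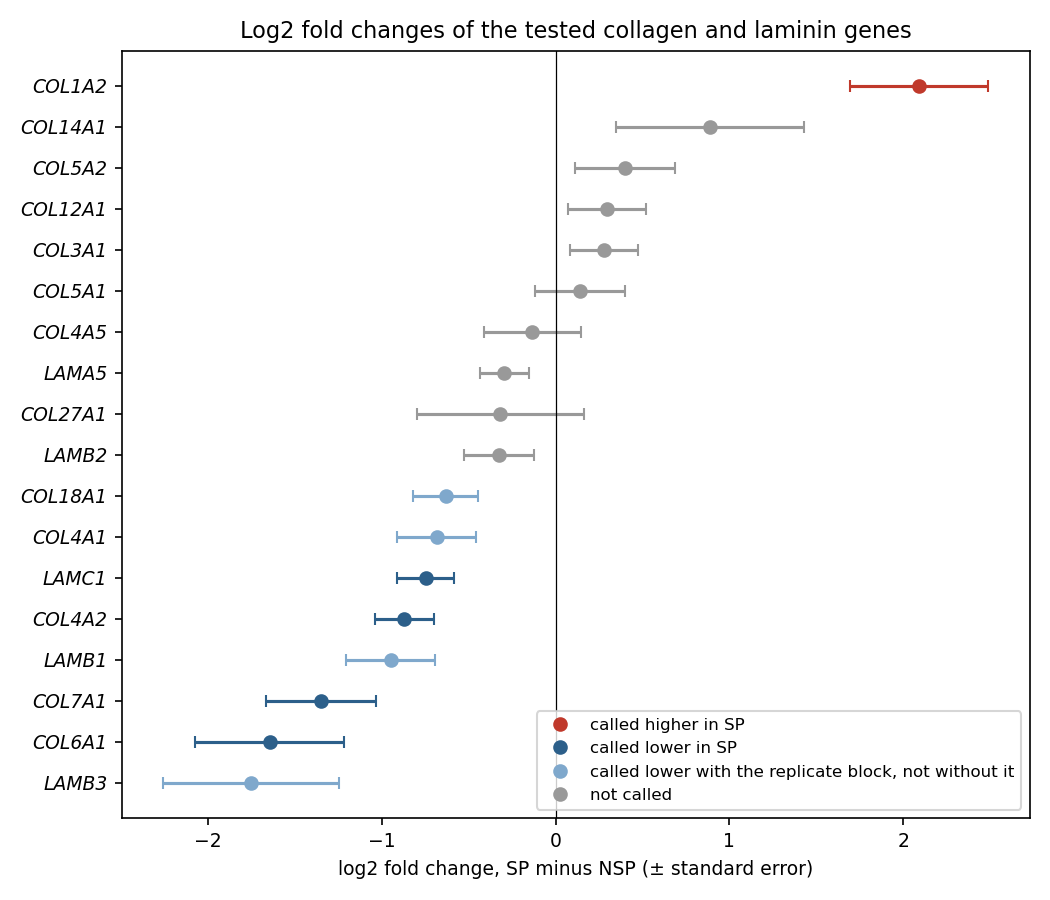
Log2 fold change (SP minus NSP, edgeR without a block) of each of the 18 tested members, with bars for the standard error and colour for the call. COL1A2 lies at 2.09, and the members called lower, with or without the replicate block, lie between -1.75 and -0.63.

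Beyond the called genes, the members split by whether the 2 groups overlapped. All SP libraries lay above all NSP libraries for COL1A2, where 4.78% of all tested genes did so. All SP libraries lay below all NSP libraries for 7 of the 18 tested members (COL7A1, LAMB1, COL4A2, LAMC1, COL4A1, COL18A1 and LAMA5), where 4.97% of all tested genes did so. An unadjusted p under 0.05 was reached by 9 tested members and by 1527 (16.4%) of all tested genes. COL6A1 and LAMB3 had larger fold changes than any of the 7 but overlapped, and their NSP libraries differed widely among themselves.

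Between libraries of the same replicate number, 9 of the tested members were lower in SP in all 4 pairs, where 15.1% of all tested genes were so. They were LAMB3, COL7A1, LAMB1, COL4A2, LAMC1, COL4A1, COL18A1, LAMB2 and LAMA5. COL1A2 was the only tested member that was higher in SP in all 4 pairs, where 14.9% of all tested genes were so.

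**Figure D4:**
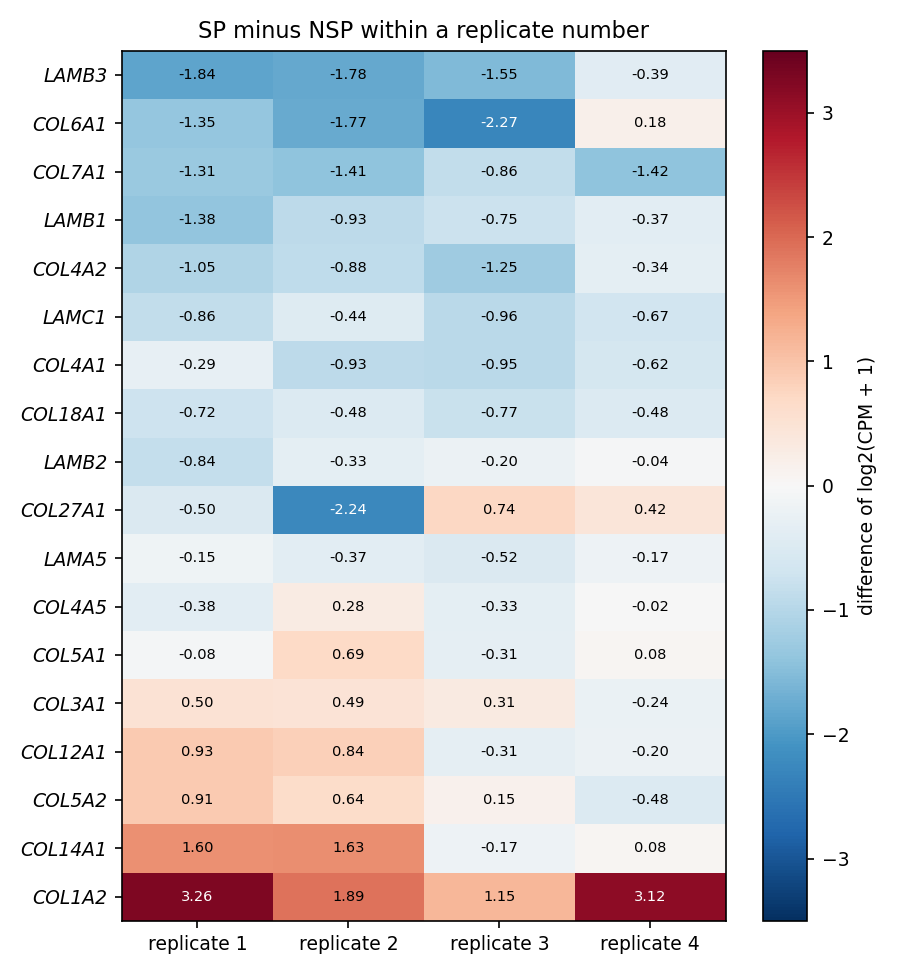
Difference of log2(CPM + 1), SP minus NSP, between libraries of the same replicate number for the 18 tested members, ordered by log2 fold change, with blue for lower and red for higher in SP. COL1A2 is higher in all 4 pairs, LAMB3 lower in all 4, and COL6A1 is lower in 3 pairs and 0.18 higher in the pair of replicate 4.

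The promoters of LAMC1 and COL7A1, called members with an entry in the RefSeq promoter table, are shown as the 250 bases before the start, in GRCh38.p14, with GGGCGG (either strand) and TATAAA (either strand) in capitals. They are shown because these are the called members, beside the type IV pair, whose promoter could be matched.

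LAMC1 upstream, chr1:183023170-183023419, GRCh38.p14, plus strand: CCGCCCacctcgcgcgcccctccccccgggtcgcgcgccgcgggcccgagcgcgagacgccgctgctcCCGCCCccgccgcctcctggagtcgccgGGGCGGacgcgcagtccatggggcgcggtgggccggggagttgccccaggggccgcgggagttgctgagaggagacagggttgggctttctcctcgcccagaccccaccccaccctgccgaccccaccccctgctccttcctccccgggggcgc
COL7A1 upstream, chr3:48595330-48595579, GRCh38.p14, minus strand: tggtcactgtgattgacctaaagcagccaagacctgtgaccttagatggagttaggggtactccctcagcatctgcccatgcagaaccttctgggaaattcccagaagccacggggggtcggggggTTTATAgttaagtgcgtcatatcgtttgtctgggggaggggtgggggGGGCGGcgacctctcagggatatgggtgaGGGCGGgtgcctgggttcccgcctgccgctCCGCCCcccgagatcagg

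LAMC1 held 3 GGGCGG and no TATAAA, and COL7A1 held 3 GGGCGG and 1 TATAAA. The table had an entry for 41 of the 56 members and 13 of the 18 tested ones. GGGCGG occurred in 58.5% of the 41 members and TATAAA in 12.2%, beside 44.6% and 12% of all promoters. COL7A1 was the only tested member with TATAAA, and LAMB3 the only one with TGTTTA (12.4% of all promoters). TGANTCA and CACGTG occurred in none of the 13, beside 7.8% and 7.4% of all promoters.

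The 38 members without enough counts included whole classes. COL20A1, COL21A1, COL22A1, COL24A1, COL25A1, COL28A1, COL6A5 and LAMC3 had no count in any library. COL2A1, COL11A1, COL11A2, COL19A1 and LAMB4 had 1 count each, COL17A1 and COL9A1 had 2, and COL6A6 and LAMA2 had 3. COL5A3, COL6A3, COL13A1 and COL26A1 had 4 each, and COL10A1, COL15A1 and COL23A1 had 8 each. COL8A1 had 12, COL16A1 29, COL9A2 40 and COL9A3 45. The transmembrane collagens, such as the hemidesmosome collagen COL17A1, were thus near 0 in both populations.

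Low genes were tested only when the filter was dropped. LAMA1, an alpha chain of early embryonic laminin, had 1 count in each SP library and 10, 4, 9 and 10 in the NSP libraries (log2 fold change -2.77, edgeR adjusted p = 0.00764). COL8A2, a chain of a short network collagen, had 4, 7, 5 and 2 counts in SP and 0, 0, 0 and 2 in NSP (log2 fold change 3.02, adjusted p = 0.0478). Both changes rest on at most 10 counts a library, and DESeq2 gave neither an adjusted p. LAMA1 crosses the noncoding gene ENSG00000265069 on the other strand, which had 4.71 ± 2.69 CPM in SP and 8.28 ± 1.22 CPM in NSP without a call (log2 fold change -0.79, adjusted p = 0.324), and ENSG00000264475, also noncoding and across LAMA1, had 13 counts. With both noncoding genes added to LAMA1 its log2 fold change was -1.24 (adjusted p = 0.0754). ENSG00000237234, across LAMA4, was called lower (8.58 ± 2.82 CPM in SP, 21.5 ± 6.55 CPM in NSP, log2 fold change -1.34, adjusted p = 0.0246) and held 18.5 times the counts of LAMA4 per kb. With its 205 counts added to the 88 of LAMA4, the sum was called lower (log2 fold change -1.19, adjusted p = 0.0388). LAMA4 alone was not called with no filter (log2 fold change -0.885, edgeR adjusted p = 0.412).

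The genes that fold, trim and cross-link collagen were mostly not called. Of 35 genes in this list 19 were tested, 1 was called lower and none higher, with a median log2 fold change of -0.06. With the replicate block 1 was higher (ADAMTS2, log2 fold change 1.34, edgeR adjusted p = 0.00602) and 2 were lower (P4HA3 and COLGALT1). For this list and those that follow, the shares over all tested genes were 1.63% higher and 2.03% lower. With the block these shares were 5.89% and 7.0%. P4HA3, an alpha subunit of the prolyl hydroxylase that stabilises the triple helix, was the called gene, at 480 ± 84.6 CPM in SP and 965 ± 97.7 CPM in NSP (log2 fold change -1.01, SE 0.16, edgeR adjusted p = 0.00243). Its exons cross a gene on the other strand, as do those of CD44, TNC and KRT7 named below. SERPINH1, the chaperone of the collagen triple helix, had 136 ± 22.8 CPM in SP and 127 ± 18.2 CPM in NSP (log2 fold change 0.10, adjusted p = 0.826).

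Other basement membrane genes gave 1 higher and 3 lower calls among 8 tested of 20, with a median log2 fold change of -0.32. NTN4, a netrin that binds laminin gamma chains and opens laminin networks, was the one called higher, at 57.1 ± 9.11 CPM in SP and 21.0 ± 3.65 CPM in NSP (log2 fold change 1.43, SE 0.20, edgeR adjusted p = 0.00114). TINAGL1 (log2 fold change -1.60, adjusted p = 0.00922), the heparan sulfate proteoglycan AGRN (-0.60, adjusted p = 0.0368) and the fibulin FBLN1 (-1.63, adjusted p = 0.0369) were lower. FBLN1 held 12, 9, 3 and 10 counts in SP and 42, 37, 13 and 32 in NSP, so its SP level rests on few reads. NTN4 thus moved opposite to LAMC1, and a link between them was not tested. The lower calls of this list went from 3 to 1 without NSP replicate 1, 2 or 4 or SP replicate 3, and with the replicate block SPARC was lower as well (log2 fold change -0.62, adjusted p = 0.00866). HSPG2, or perlecan, had a log2 fold change of 0.41 (adjusted p = 0.366), and NID2, or nidogen 2, of -0.04 (adjusted p = 0.962).

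Receptors for collagen and laminin gave 4 lower calls and none higher among 15 tested of 20, with a median of -0.12. ITGA3, the integrin alpha chain for LAMA5 and LAMA3 laminins, had 604 ± 97.9 CPM in SP and 990 ± 220 CPM in NSP (log2 fold change -0.71, edgeR adjusted p = 0.0369). BCAM, a receptor for LAMA5, had 61.8 ± 34.4 CPM in SP and 150 ± 57.0 CPM in NSP (-1.30, adjusted p = 0.0453). The surface proteoglycans CD44 (-1.32, adjusted p = 0.00376) and SDC1 (-1.55, adjusted p = 0.0281) were lower as well. With the replicate block 5 were lower and 1 was higher. The added genes were ITGB1, the common beta chain that pairs with ITGA3 (log2 fold change -0.73 with the block, adjusted p = 2.5e-04, and 0.12 without it), and the collagen integrin ITGA11 (1.23, adjusted p = 1.02e-04, and 0.0793 without it). The 4 lower calls dropped to 1 without NSP replicate 1 or 2 and to 2 without SP replicate 2 or 3, and 1 gene was higher without NSP replicate 2 or SP replicate 3.

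Of 26 interstitial matrix genes 14 were tested, 3 were called lower and none higher, with a median of -0.22. They were FN1, fibronectin (40.1 ± 5.62 CPM in SP, 95.5 ± 11.4 CPM in NSP, log2 fold change -1.25, edgeR adjusted p = 8.63e-04), POSTN, periostin (-1.73, adjusted p = 9.35e-04), and TNC, tenascin C (-2.19, adjusted p = 0.00646). TNC held 7, 6, 4 and 2 counts in SP and 29, 34, 28 and 11 in NSP. It thus passed the filter on low counts through its NSP libraries, and its SP level rests on few reads. With the replicate block 4 were lower and 1 was higher, adding TGFBI (log2 fold change -1.29, adjusted p = 2.15e-04) and CCN1 (0.47, adjusted p = 0.0106). FN1 and POSTN bind type I collagen fibres, and both were lower in the population in which COL1A2 was higher. These are RNA counts, no fibre or protein was measured here, and a link between these genes was not tested.

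**Figure D5:**
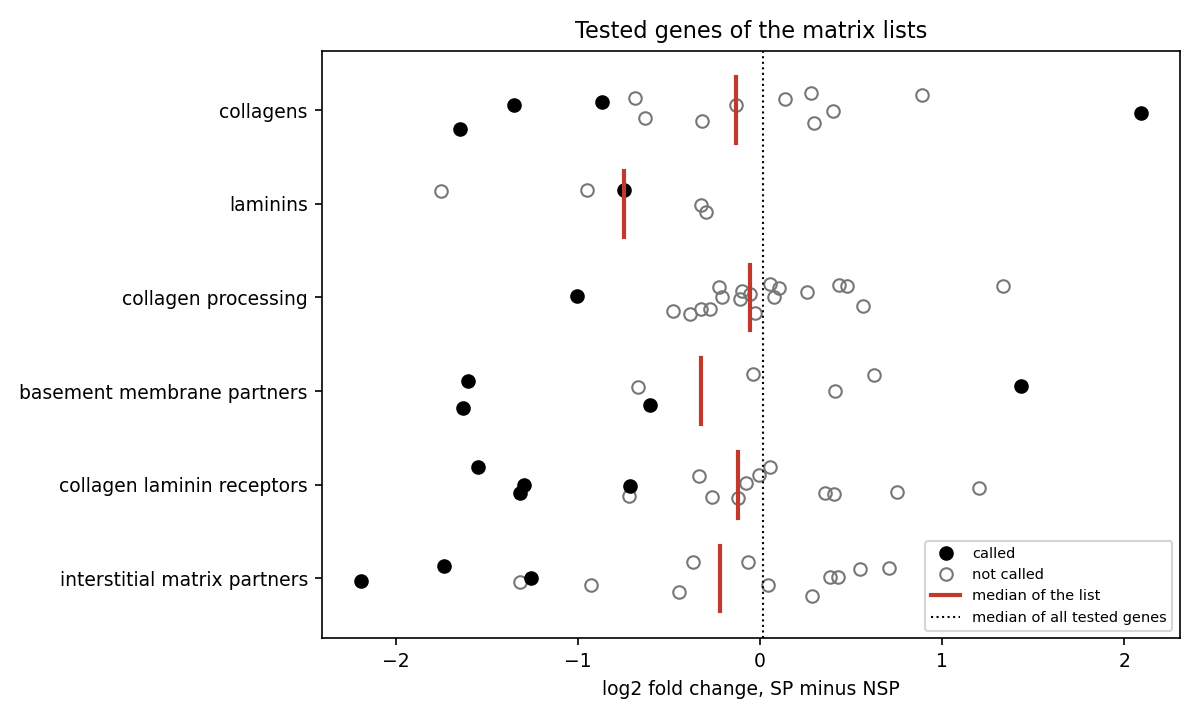
Log2 fold change (SP minus NSP) of the tested genes of the collagens, the laminins and 4 other matrix lists, with filled circles for called genes, a red line for the median of a list and a dotted line for the median of all tested genes. Filled circles lie below 0 apart from COL1A2 and NTN4.

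Markers of the cell state moved beside these results. KRT7, a keratin of simple epithelia, was called lower, at 258 ± 87.0 CPM in SP and 659 ± 129 CPM in NSP (log2 fold change -1.35, edgeR adjusted p = 0.00342). It was the 1 called gene of 5 tested in the urothelial and epithelial list of 19, whose summed level was 3438 to 4794 CPM in SP and 4685 to 6419 CPM in NSP. The mesenchymal list of 10 had 7 tested genes with FN1 called lower, and its sum, most of it VIM, was 331 to 490 CPM in SP and 540 to 918 CPM in NSP. The median log2 fold change of the 7 was -0.457, and at an unadjusted edgeR p under 0.05 3 were lower and 1 was higher. With the replicate block VIM was called lower too (log2 fold change -0.75, edgeR adjusted p = 3.39e-06, and 0.0783 without it). TWIST1, a transcription factor of the same list, went the other way, at 13.3 ± 2.61 CPM in SP and 6.63 ± 1.08 CPM in NSP without overlap (log2 fold change 0.99, adjusted p = 0.0728, and 0.0202 with the block, where it was called higher). ZEB2 had a log2 fold change of 0.52 (adjusted p = 0.328) and was higher in SP in 4 of 4 pairs. Markers of other cell types were low. The leukocyte list summed to 38.4 to 85.4 CPM in SP and 12.1 to 54.6 CPM in NSP, nearly all of it CD14, while its defining markers PTPRC and CD3E were at 0. The endothelial and erythroid lists summed to at most 1.28 CPM in any library. The part of the cell-state markers in the collagen and laminin changes was not tested.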

How the data were processed

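RNA was measured in 8 libraries of sorted J82 cells, 4 SP and 4 NSP. The authors sequenced single-end 50 bp reads from mRNA libraries, used STAR for alignment (hg19) and featureCounts for counting (gencode version 19 genes), and the values are deposited as raw counts per gene without normalization. The strand setting and the handling of reads shared by genes are not given in the sources used here. The columns were assigned to groups and replicates by name.

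Symbols, positions and exon overlaps were joined by gene identifier from GENCODE v44 mapped to GRCh37, which is later than the annotation counted on, so overlaps and lengths are approximate, and 55538 of 57820 genes (96.1%) had an entry. Levels per kb use the canonical transcript. Promoters were taken from RefSeq on GRCh38.p14.

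The counts were tested on the whole table by edgeR's quasi-likelihood functions glmQLFit and glmQLFTest (version 4.0.16, R 4.3.3), without covariates, after TMM scaling. The low-count filter was filterByExpr (min.count 10, min.total.count 15). A call needed an adjusted p under 0.05 (Benjamini-Hochberg) and more than a 1.3-fold change. The standard error is the log2 fold change divided by the square root of F, and 95% intervals use the test's degrees of freedom. Single members were also compared by an exact permutation test of log2(CPM + 1). The scripts were checked on simulated counts. Sequences and figures were made with Python 3.11.15.

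Replicate numbers were taken to pair the samples, since the deviations of same-numbered libraries from their group means correlated at 0.38, 0.203, 0.322 and 0.321. The fit with the replicate number as a block was therefore run beside the fit without it. Other alternatives were DESeq2 1.42.0, its size factors, 2 other filters, leaving out each library, and summing each member with noncoding genes of the other strand. No replicates agreed within sampling noise (chi-square per degree of freedom 5.61 to 13.5).

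All tested members were named, with every library for those called or at an unadjusted p under 0.05, and the rest were named by their counts, except for a member that is not reported here. Genes of the other strand of a tested member were named at 10 or more counts, and of the other lists the called genes. Opposite-strand genes of untested members, genes of the other lists that were called with the block alone, SERPINH1, HSPG2 and NID2, the markers given singly, the CCAAT motif and the LAMC1 and COL7A1 promoters were chosen after values were seen. The members and lists were chosen with earlier results of these data known. Of the listed marker genes, 1 (PECAM1) was not matched. The other data of the study were not analysed here.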

Additional observations from a re-analysis of the deposited data

Results flagged for a closer look

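In 2 of 36 groups of 4 libraries examined (18 tested members in each population), 1 library stood apart from the other 3 by Dixon's criterion, and chance alone gives about 1.8 in 36. In NSP cells, COL14A1 had 8.99 CPM in replicate 4 and 1.48 to 2.66 CPM in the others, a gap of 0.843 of the group's range. Without that library its log2 fold change was 1.61 in place of 0.89 (edgeR adjusted p = 0.151). In SP cells, COL1A2 had 125 CPM in replicate 2 and 67.7 to 69.9 CPM in the others, a gap of 0.962 of the range. Without it COL1A2 was still called higher, with a log2 fold change of 1.82 (edgeR adjusted p = 0.0325).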

How the results depend on the processing

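COL1A2 (log2 fold change 1.78 to 2.52) and COL4A2 (-1.01 to -0.75) were called in all 14 alternatives, and no tested member that was called turned its direction in any of them. With no filter on low counts 2 members were higher and 7 were lower, in place of 1 and 4. With the replicate block 8 were lower. Leaving out 1 library gave 1 to 5 members lower. The count was 1, with COL4A2 alone, without NSP replicate 1 and without SP replicate 4, and it was 2, with COL4A2 and LAMC1, without NSP replicate 2 and without SP replicate 3. The calls over all tested genes moved as well. Lower calls went from 189 to 381 with no filter, 652 with the block and 89 to 181 with 1 library left out. Higher calls went from 152 to 303, 548 and 69 to 164 in the same settings. LAMB1 was also called with DESeq2's size factors, with no filter, with 10 counts required in every library and without NSP replicate 3. LAMB3 was also called with DESeq2, with no filter and without NSP replicate 3 or 4. The stricter filter left 14 members tested, without COL7A1 and LAMB3. In the 4 other matrix lists, 1 gene was higher and 11 were lower. With no filter 3 were higher and 16 lower, and with the replicate block 4 were higher and 15 lower. With 10 counts required in every library 1 was higher and 8 were lower. Leaving out 1 library gave 1 to 2 higher and 6 to 10 lower, the latter 6 without NSP replicate 1 or 2 and 7 without SP replicate 3. The counts of members without overlap were the same under both other scalings. No library held more than 2073526 counts, so the 38 members below the filter were tested only in some alternatives, where LAMA1 and COL8A2 gave calls on few counts. LAMA4 was called only as a sum with ENSG00000237234, which held 205 counts against 88 of LAMA4.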
